A study of Rattus norvegicus with 4 samples.

Results

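The miR-26, miR-29 and miR-30 families are 3 groups of microRNA (miRNA), short RNAs that guide Argonaute proteins to matching messenger RNAs through the seed, bases 2 to 8 of the mature strand. The members were the 10 array rows whose miRNA name is rno-miR-26a-5p, rno-miR-26b-5p, rno-miR-29a-3p, rno-miR-29b-3p, rno-miR-29c-3p, rno-miR-30a-5p, rno-miR-30b-5p, rno-miR-30c-5p, rno-miR-30d-5p or rno-miR-30e-5p (written below without the prefix rno, for rat), out of 719 rat miRNAs on the array. They were chosen by name, with earlier results of these data known. RNA from serum exosomes, small vesicles that cells shed into blood, was hybridised in 1 colour to rat miRNA arrays from Agilent. Each of the 4 groups of male rats has 1 array. The naive array came from rats without injection at day 0. The other arrays came from rats injected with a hepatocellular carcinoma (HCC) cell line. Serum labelled light was taken on day 35, and sera labelled moderate and severe were taken on day 49.

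The cell line, the age of the rats and the number of rats behind each array are not named in the labels. The design text speaks of HCC exosomes given as 1 dose to rats it calls baffolo, and of 4 independent experiments at each time, so it differs from the labels on what was injected. Disease state, injection and day change together against naive and cannot be told apart. With 1 array per group there is no replicate error and no test. A ± value is a standard error over replicate spots and covers spot noise only. It is of 1 array for a signal, combines both arrays for a difference, and combines both members for a gap between members. A difference is one between arrays.

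As background, the 3 families are studied as brakes on liver tumours and on fibrosis. In human and mouse cells, miR-26 arises from introns of the Ctdsp phosphatase genes and represses cyclins and the chromatin regulator Ezh2, and its delivery to the liver slowed MYC-driven tumours in mice. miR-29 represses collagens and the DNA methyltransferases Dnmt3a and Dnmt3b, and it is kept low in activated hepatic stellate cells, the scar-forming cells of the liver. miR-30 represses Snai1, a driver of epithelial-mesenchymal transition, and beclin 1, a component of autophagy. Each family is often reported low in liver tumours.

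The mature sequences show which members the array has to tell apart, and they are given 5′ to 3′ from RefSeq (rat build GRCr8) with the seed in capitals. 8 of the 10 members were found there, and miR-30b-5p and miR-30d-5p are named only.
miR-26a-5p: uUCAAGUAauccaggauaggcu
miR-26b-5p: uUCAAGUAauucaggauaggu
miR-29a-3p: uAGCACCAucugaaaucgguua
miR-29b-3p: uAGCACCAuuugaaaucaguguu
miR-29c-3p: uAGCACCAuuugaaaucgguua
miR-30a-5p: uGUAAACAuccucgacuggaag
miR-30c-5p: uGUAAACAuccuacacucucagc
miR-30e-5p: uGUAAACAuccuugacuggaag
The capitals are identical within a family and differ between families. Counted from 1 at the 5′ end, miR-29a-3p and miR-29c-3p differ at 1 base, C10U, and miR-30a-5p and miR-30e-5p at 1 base, C13U. miR-26a-5p and miR-26b-5p differ at C11U and C21U over the 21 bases they share, and miR-26a-5p is 1 base longer. miR-29b-3p matches miR-29c-3p over its first 17 bases and then differs at A18G, G21U and U22A. miR-30c-5p is the most distant of the 3 miR-30 sequences shown, with 5 differences from miR-30a-5p between bases 13 and 20. Members this alike can bind each other's probes, so each single member is uncertain to that extent. The only other array miRNA found with one of these seeds was miR-384-5p, which shares the miR-30 seed and was detected on 0 arrays.

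The 10 members come from 12 genes, and 10 of these genes form 5 neighbouring pairs in the RefSeq table. In GRCr8 coordinates, mature miR-29a-3p lies at chr4:60617968-60617989 on the minus strand, and its neighbour encodes miR-29b-3p at chr4:60618342-60618364. A second copy of miR-29b-3p lies at chr13:109098882-109098904 on the plus strand, next to miR-29c-3p at chr13:109099412-109099433. Both genes of this chromosome 13 pair lie within the span of 1 long noncoding RNA gene, LOC102550527. miR-30c-5p also has a pair of genes, one beside Mir30e inside the span of Nfyc on chromosome 5 and one beside Mir30a on chromosome 9. Mir30b and Mir30d are neighbours on chromosome 7. The genes of miR-26 stand apart, Mir26a inside the span of Ctdspl on chromosome 8 and Mir26b inside that of Ctdsp1 on chromosome 9. Because both copies of miR-29b-3p, and both of miR-30c-5p, give the same mature sequence, the array cannot say which gene a signal came from.

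All 10 members were detected and measured on all 4 arrays, against 104 of 719 miRNAs measured on every array. A miRNA was measured where the scanner software called it detected and its signal, summed over its probes, reached the array's floor of 13.1 to 16.0 intensity units. The arrays differed in brightness: the summed signal of detected miRNAs was 0.643, 1.58 and 0.694 times that of naive on the light, moderate and severe arrays. The severe array, on which all 2-fold differences of members lie, also had a lower labelling spike-in signal in its file header, log10 3.38 against 3.53 to 3.58, and 525 outlier spots against 386 to 387, and the part of these in the members' differences was not tested. Differences are therefore on the log2 scale after dividing each array by its 75th percentile, taken over 111 miRNAs that all 4 arrays detected. As checks of other RNA sources, the red-cell list took 17.8% to 27.0% of the detected signal, platelets 3.84% to 8.72%, leukocytes 0.67% to 1.51%, hepatocytes 0.32% to 1.06%, fibroblast and smooth muscle 0.073% to 0.388%, and skeletal and heart muscle 0.041% to 1.56%. The low end was the severe array for all of these lists except hepatocytes, whose low end was the light array. Marker proteins of exosomes are not measured by this assay, so the label exosome was not checked.

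The miR-26 family was the family with both members at least 2-fold lower on the severe array than on the naive array. Before scaling, rno-miR-26a-5p read 917 ± 6.90 intensity units in naive, 538 ± 5.98 in light, 1186 ± 11.9 in moderate and 215 ± 2.53 in severe serum. rno-miR-26b-5p read 557 ± 4.87, 331 ± 4.57, 944 ± 4.08 and 170 ± 1.69 in the same order. The moderate array was highest and the severe array lowest for both. After scaling, miR-26a-5p, which represses cyclins in the liver, was 2.66-fold lower on the severe array than on the naive array (log2 −1.41 ± 0.02). miR-26b-5p was 2.04-fold lower (log2 −1.03 ± 0.02), so it lies just past the 2-fold line.

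The miR-29 family lay above the median of all miRNAs in severe serum, led by miR-29c-3p. rno-miR-29c-3p read 337 ± 3.21 intensity units in naive, 230 ± 2.04 in light, 748 ± 5.05 in moderate and 550 ± 4.58 in severe serum. It was the single member with more unscaled signal on the severe array than on the naive array. rno-miR-29b-3p read 308 ± 2.02, 273 ± 3.04, 627 ± 5.14 and 206 ± 1.80 in the same order. rno-miR-29a-3p read 1662 ± 14.7, 1261 ± 13.9, 3412 ± 29.3 and 1602 ± 16.5. Severe and naive thus lay close together for miR-29a-3p before scaling, and miR-29b-3p was lower on the severe array. After scaling, miR-29c-3p was 2.61-fold higher on the severe array than on the naive array (log2 1.39 ± 0.02), miR-29a-3p stood at 0.63 ± 0.02 and miR-29b-3p at 0.11 ± 0.02. Without scaling they stood at 0.70, −0.05 and −0.58, and the median of all miRNAs at −0.79, so the sign of the last 2 depends on the scaling. Their place above that median cannot change when an array is divided by 1 factor, so its being kept without scaling is no further check.

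With the values as reported, the miR-30 family split on the severe array into a lower pair and 3 members nearer to naive. rno-miR-30b-5p read 358 ± 3.64 intensity units in naive, 155 ± 2.37 in light, 619 ± 3.77 in moderate and 79.9 ± 1.52 in severe serum. rno-miR-30c-5p read 157 ± 2.47, 49.6 ± 1.25, 212 ± 2.39 and 43.6 ± 1.29, so that before scaling its light and severe values were 0.316 and 0.278 times its naive value. rno-miR-30d-5p read 314 ± 2.49, 196 ± 2.01, 578 ± 3.67 and 190 ± 1.82, with light and severe close together. miR-30a-5p ran from 140 on the severe array to 534 on the moderate array, and miR-30e-5p from 157 to 641. After scaling, miR-30b-5p was 2.79-fold lower on the severe array than on the naive array (log2 −1.48 ± 0.03) and miR-30c-5p 2.24-fold lower (log2 −1.16 ± 0.05). miR-30e-5p stood at −0.62 ± 0.01, miR-30a-5p at −0.31 ± 0.02 and miR-30d-5p at −0.04 ± 0.02.

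**Figure D1:**
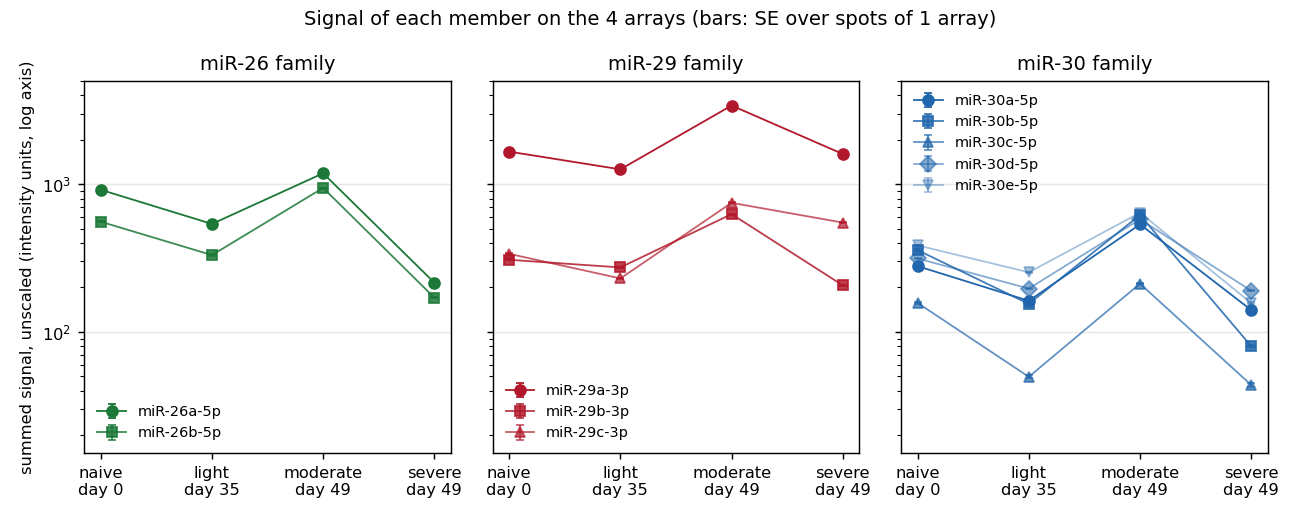
Summed unscaled signal of each member in intensity units (log axis) by array (day and label on the horizontal axis), in a panel for each family; bars are the standard error over spots of 1 array, and lines join the values of 1 member. Each member is highest on the moderate array, and miR-29c-3p alone is higher on the severe array (550) than on the naive array (337).

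In the comparison of severe with naive, 4 of 10 members were at least 2-fold lower and 1 was at least 2-fold higher. Of the 109 miRNAs measured on both arrays, 19.3% were that much lower and 22.0% that much higher. The 10 members are not replicates, and these counts have no test. The median was −0.46 over the members and −0.11 over all 109 miRNAs. By family the medians were −1.22 for miR-26, 0.63 for miR-29 and −0.62 for miR-30. The miR-29 median is the value of miR-29a-3p, whose 2 probes disagree on the severe array, and by the dimmer one it was 0.11, with miR-29a-3p at −0.10, next to the median of all miRNAs. All 3 miR-29 members lay above the median of all miRNAs, as they did in 12 of 13 settings, both miR-26 members lay below it, as in all 13, and so did 4 of 5 miR-30 members, with miR-30d-5p above. No scaling, median scaling and labelling spike-ins only divide each array by 1 factor and cannot change these places. The 13 settings are therefore not independent checks of them. With normexp, a background model with an added offset, miR-26b-5p, miR-30b-5p, miR-30c-5p and miR-29c-3p lay inside 2-fold, at −0.74, −0.78, −0.28 and 0.995, and so did miR-26b-5p in the deposited value table, at −0.85, and miR-29c-3p without scaling, at 0.70. As shares of an array's own detected signal, which amount to scaling by that sum, miR-26 took 1.06% in naive and 0.399% in severe serum. miR-29 took 1.66% and 2.44%, and miR-30 took 1.07% and 0.632%. The severe sum was 0.694 times that of naive. Most of the miR-29 share was miR-29a-3p, which before scaling read 1662 in naive and 1602 in severe serum. In exosomes, fewer vesicles that carry a miRNA and fewer copies per vesicle cannot be told apart.

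Every marker list but that of hepatocytes took a smaller share of the signal on the severe array than on the naive array. The 4 platelet miRNAs took 6.48% of the detected signal on the naive array and 3.84% on the severe array, and 3 of them, measured on both, differed by −0.98 to 0.02. The 5 leukocyte miRNAs took 1.33% and 0.67%, and differed by −3.11 to 0.03. The red-cell miRNAs took 25.2% and 17.8%, and the 3 of them measured on both arrays differed by −0.71 to 1.82. Fibroblast and smooth muscle miRNAs took 0.173% and 0.073%, with 2 measured on both at −1.38 and −0.11, and skeletal and heart muscle miRNAs took 0.899% and 0.041%, with 1 at −4.14. Hepatocyte miRNAs took 1.06% on both arrays, but the 2 measured on both shifted in opposite directions, at −0.75 and 1.56. The part of these RNA sources in the members' differences was not tested. The let-7 family, which like these families is tied to differentiation, had 5 of its 6 measured members at least 2-fold lower and a median of −1.55. Its values lay nearer to those of miR-26 than to those of miR-29.

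**Figure D2:**
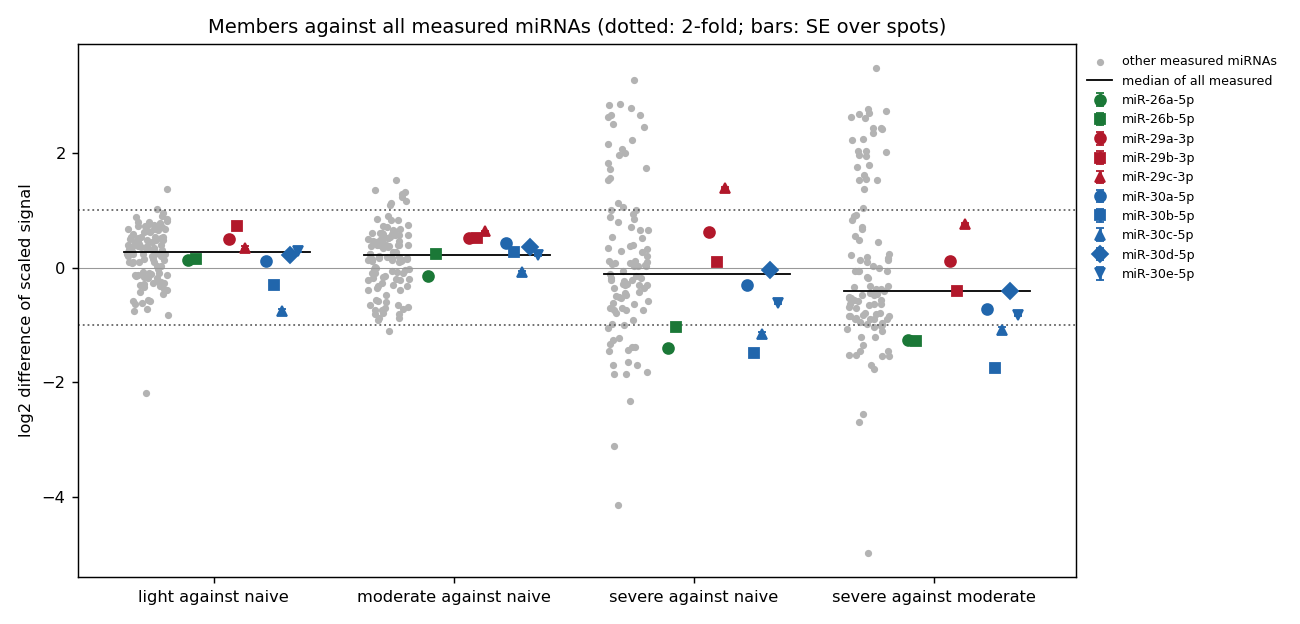
Log2 difference of scaled signal for each member (coloured by family, bars are the standard error over spots) and for the other measured miRNAs (grey), in 4 comparisons of arrays; black lines are the median of all measured miRNAs and dotted lines mark 2-fold. On the severe array miR-29c-3p lies at 1.39 from naive, while miR-26a-5p, miR-26b-5p, miR-30b-5p and miR-30c-5p lie below the lower dotted line.

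Members of 1 family, and members of 1 locus, shifted by different amounts. The difference between the shifts of 2 members on the same pair of arrays does not change when an array is divided by any 1 factor. From naive to severe, miR-29c-3p shifted by 1.28 ± 0.02 more on the log2 scale than miR-29b-3p, a 2.43-fold gap, although 1 of the 2 genes for miR-29b-3p neighbours that of miR-29c-3p. By summed values, miR-29c-3p shifted by 0.76 ± 0.03 more than miR-29a-3p, from which it differs at 1 base. The 2 probes of miR-29a-3p stood at 0.83 and −0.10, so this gap is less certain than its spot error. miR-30d-5p shifted by 1.44 ± 0.04 more than its locus neighbour miR-30b-5p, a 2.71-fold gap. miR-30e-5p shifted by 0.55 ± 0.05 more than miR-30c-5p, and miR-30a-5p by 0.86 ± 0.05 more. With normexp the order of miR-30e-5p and miR-30c-5p turned, at −0.39 and −0.28. Among the pairs set side by side, the smallest gaps were 0.31 ± 0.03 between miR-30a-5p and miR-30e-5p, and 0.38 ± 0.03 between miR-26b-5p and miR-26a-5p. Not every pair within a family was included. Those left out include miR-30a-5p with miR-30d-5p, at −0.31 and −0.04, and miR-30b-5p with miR-30c-5p, at −1.48 and −1.16. Between families, the miR-29 median lay 1.24 above the miR-30 median and 1.85 above the miR-26 median, or 0.72 and 1.33 above them with miR-29a-3p by its dimmer probe.

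Each member had 2 probes, and their agreement gives a second view of technical error. Over 71 miRNAs with a pair of probes above the floor on the naive and severe arrays, the probes' log2 differences lay 0.10 apart at the median and 1.19 apart at most. The gaps of 1.28 for miR-29c-3p over miR-29b-3p and 1.44 for miR-30d-5p over miR-30b-5p were larger than that as reported. With normexp they were smaller, at 0.93 and 0.77. A gap between 2 miRNAs carries the probe error of both, and these 2 were the largest of the pairs set side by side. The comparison therefore does not bound their error. Both probes of miR-29c-3p were higher on the severe array, at 1.40 and 1.37. The probes of miR-26a-5p, at −1.41 and −1.40, and those of miR-26b-5p, which lay 0.04 apart, were lower by nearly the same amount. miR-29a-3p was the exception. Its brighter probe stood at 0.83 and its dimmer probe at −0.10, a gap of 0.94 that was in place 2 of the 71. The brighter probe read 1198, 919, 2455 and 1332 intensity units in naive, light, moderate and severe serum, and the dimmer one 465, 342, 957 and 270. Against naive, the gap of these probes was 0.06 on the light array and 0.01 in moderate serum, so they parted on the severe array alone. The summed value of miR-29a-3p on the severe array is therefore uncertain in direction. For miR-30b-5p and miR-30c-5p the result rests on the brighter probe, at −1.46 and −1.17, since the dimmer probe had 0 of 10 spots well above background on the severe array.

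**Figure D3:**
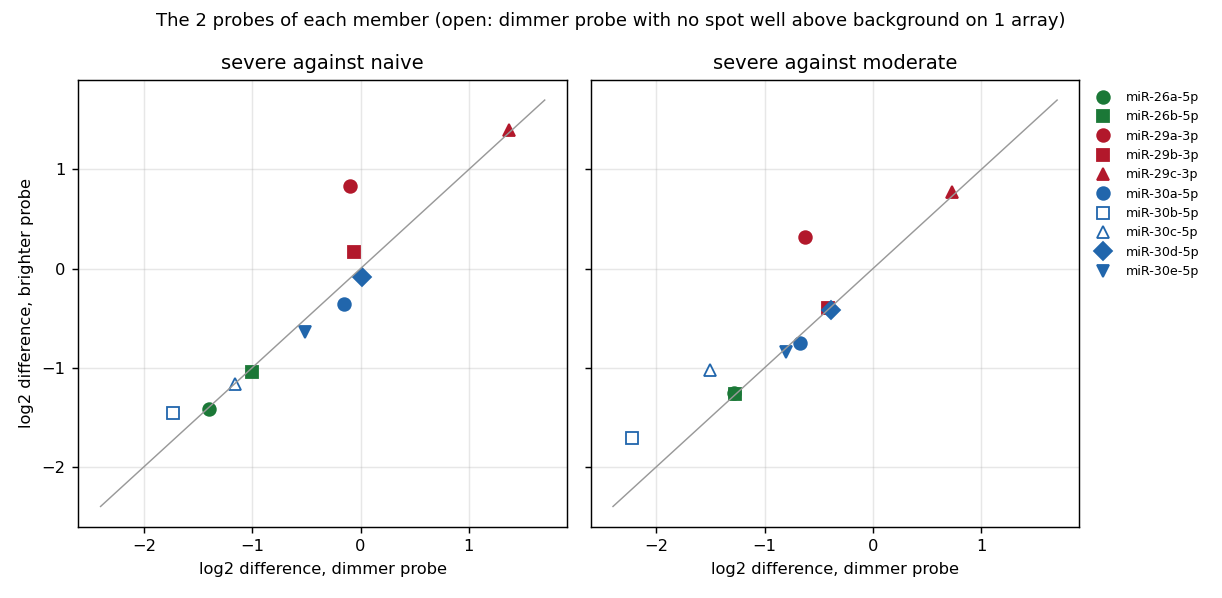
Log2 difference of scaled signal by the dimmer probe (horizontal axis) and the brighter probe (vertical axis) of each member, for severe against naive and severe against moderate; the line marks equal values, and open symbols have a dimmer probe with no spot well above background on 1 of the arrays. miR-29a-3p lies above the line by 0.94 in both panels, and all members but it, miR-30b-5p and miR-30c-5p lie within 0.23 of the line.

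On the light array, at day 35, no member reached 2-fold. The counts were 0 of 10 higher and 0 of 10 lower, against 1.71% and 0.855% of the 117 miRNAs measured on both. The miR-29 members stood highest, miR-29b-3p at 0.73 ± 0.02, miR-29a-3p at 0.50 ± 0.02 and miR-29c-3p at 0.35 ± 0.02, against a median over all miRNAs of 0.27. Without scaling these 3 lay at −0.17 to −0.55, with a median over all of −0.63, so their sign depends on the scaling. All 3 lay above the median of all miRNAs in 11 of 13 settings. With normexp 1 of them did, and with quantile normalization 2. Settings that only divide an array by 1 factor could not change this place. miR-26a-5p and miR-26b-5p stood at 0.13 and 0.15. miR-30c-5p was lowest at −0.76 ± 0.04, in place 114 of 117 from the highest, with miR-30b-5p at −0.31 ± 0.03. Both were below 0 under every scaling run, and miR-30c-5p, whose dimmer probe had 0 spots well above background on the light array, passed 2-fold under 5 of 12 alternatives and stood at −0.01 with normexp. miR-30a-5p, miR-30d-5p and miR-30e-5p stood at 0.12 to 0.30. The gap between miR-30e-5p and miR-30c-5p was 1.06 ± 0.05 here and 0.55 ± 0.05 on the severe array. The red-cell list took 27.0% of the detected signal on the light array and 25.2% on the naive array. Platelets took 7.56% and 6.48%, leukocytes 1.51% and 1.33%, and fibroblast and smooth muscle 0.176% and 0.173%. Skeletal and heart muscle took 0.470% and 0.899%. Hepatocytes took 0.32% and 1.06%, with 2 miRNAs measured on both at −2.18 and −0.19. The part of these sources was not tested.

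The moderate array, at day 49, was the brightest, and after scaling no member reached 2-fold from naive. The counts were again 0 of 10 higher and 0 of 10 lower, against 6.35% and 0.794% of the 126 miRNAs measured on both. This count depends on the scaling, since 5 members were at least 2-fold higher when scaled by labelling spike-ins (the 3 of miR-29, miR-30a-5p and miR-30d-5p) and 3 without scaling. miR-29c-3p stood at 0.63 ± 0.02, miR-29a-3p at 0.52 ± 0.02 and miR-29b-3p at 0.51 ± 0.02. The 3 miR-29 members lay within 0.12 of each other, although with quantile normalization miR-29a-3p stood at 0.19 and miR-29c-3p at 0.60. All 3 lay above the median of all miRNAs, 0.22 as reported, under all 13 settings, although those that only divide an array by 1 factor could not change this. The miR-30 members ran from −0.08 for miR-30c-5p to 0.42 for miR-30a-5p. miR-26a-5p stood at −0.15 ± 0.02 and miR-26b-5p at 0.24 ± 0.01, a gap of 0.39 ± 0.02, against 0.38 ± 0.03 in severe serum. Without scaling all 10 were above 0, as was the median of all miRNAs, at 0.74. Fibroblast and smooth muscle miRNAs took 0.388% of the detected signal on this array against 0.173% on the naive array, with 3 measured members at 1.28 to 1.35, and their part in the miR-29 values was not tested.

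The 2 arrays of day 49 set severe against moderate disease on the same day. In severe serum 4 of 10 members were at least 2-fold lower and 0 of 10 higher, against 20.0% and 22.6% of the 115 miRNAs measured on both. Without scaling 9 were that much lower and with labelling spike-ins 8, 1 was with normexp and 1 in the deposited value table, and 1 was higher with quantile normalization and in that table. miR-30b-5p was 3.37-fold lower (log2 −1.75 ± 0.03), miR-26b-5p 2.41-fold (−1.27 ± 0.02), miR-26a-5p 2.40-fold (−1.26 ± 0.02) and miR-30c-5p 2.11-fold (−1.08 ± 0.05). miR-29c-3p stood at 0.76 ± 0.02, above every other member (−0.44 without scaling, where the median of all was −1.61), and miR-29b-3p at −0.40 ± 0.02. With normexp miR-26b-5p, miR-30b-5p and miR-30c-5p lay inside 2-fold, at −0.93, −0.95 and −0.08, and in the deposited value table miR-26a-5p, miR-26b-5p and miR-30c-5p did, at −0.95, −0.96 and −0.92. miR-30c-5p, whose dimmer probe had 0 of 10 severe spots well above background, stayed past 2-fold under 7 of 12 alternatives. The 2 miR-26 members differed here by 0.01, less than their spot error of 0.03. For miR-29a-3p the probes again disagreed, at 0.32 and −0.63, the widest gap among 76 miRNAs. The family medians were −1.27 for miR-26, 0.11 for miR-29 and −0.83 for miR-30, against −0.41 over all miRNAs. With miR-29a-3p by its dimmer probe the miR-29 median was −0.40, level with the median of all miRNAs. Platelet miRNAs took 8.72% of the detected signal in moderate and 3.84% in severe serum, red-cell miRNAs 25.1% and 17.8%, and leukocyte miRNAs 1.04% and 0.67%. Fibroblast and smooth muscle miRNAs took 0.388% and 0.073%, with 2 measured on both at −2.69 and −1.46. Skeletal and heart muscle miRNAs took 1.56% and 0.041%, with 1 at −4.97. Hepatocyte miRNAs took 0.66% and 1.06%, with 2 measured on both at −0.01 and 1.54. The part of these sources was not tested. This comparison and those with the naive array share arrays, so their values are not independent.

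**Figure D4:**
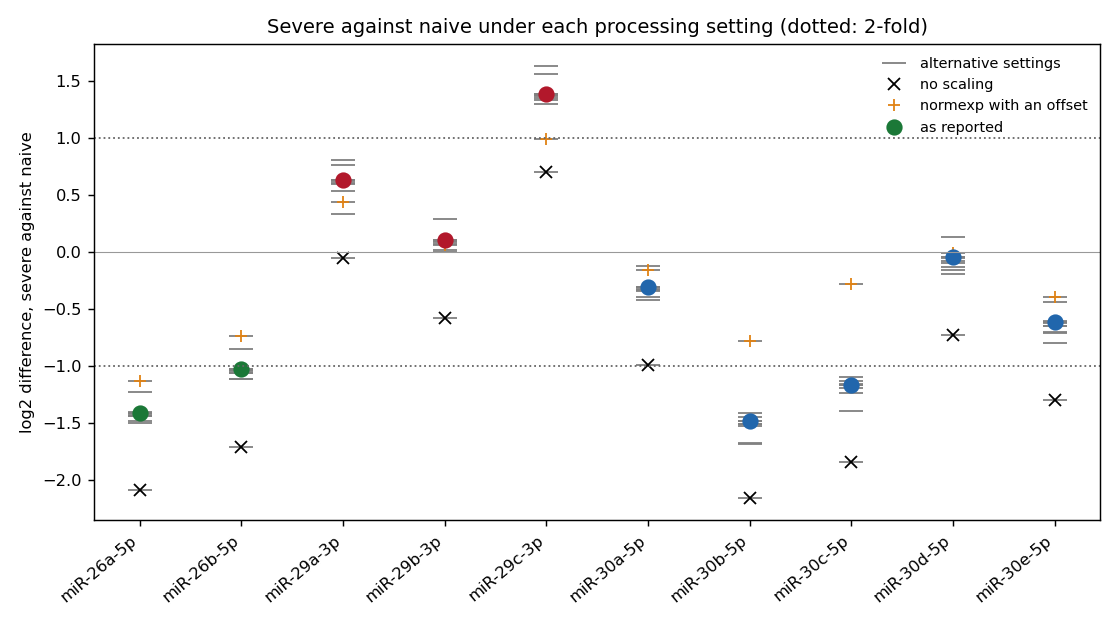
Log2 difference from naive to severe for each member as reported (coloured circles) and under 12 alternative settings (grey dashes, with no scaling as crosses and normexp as plus signs); dotted lines mark 2-fold. miR-29c-3p lies above 0 and miR-26a-5p, miR-26b-5p, miR-30a-5p, miR-30b-5p, miR-30c-5p and miR-30e-5p lie below 0 under every setting that gave a value.

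The other strand of a hairpin is often degraded when the mature strand is loaded, and here most of these strands were near background. The array held 12 such arms, and 8 were detected on 0 arrays. On the moderate array 4 were detected, all of the miR-30 family, and 2 of them reached the floor, miR-30e-3p at 32.5 ± 1.45 intensity units and miR-30a-3p at 25.6 ± 0.996. The other detected arms, miR-30c-2-3p and miR-30c-1-3p, summed to 11.9 and 5.16 with dimmer probes that read below 0. Their brightest probes alone read 17.2 and 14.0, above that array's floor of 13.1. miR-30e-3p read 8.08 in naive, 3.18 in light and −3.49 in severe serum, none of them measured. Against the naive floor, miR-30e-3p was at least 1.45-fold higher on the moderate array and miR-30a-3p at least 1.14-fold. The floor comes from 1 probe and the value adds up 2, which makes this bound approximate. Against the light and severe floors no fold can be given. The other arms of miR-26 and miR-29 were detected on 0 arrays.

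Across the 3 disease arrays, the miRNAs most like each family were found among 94 other miRNAs measured on every array, by the root mean square distance of their 3 log2 differences from the family's medians. For miR-26 the nearest were miR-342-3p, miR-18a-5p and miR-326-3p, at 0.085, 0.205 and 0.260. For miR-29 they were miR-500-3p, miR-320-3p and miR-23b-3p, at 0.099, 0.145 and 0.166. These rest on the summed value of miR-29a-3p, and by its dimmer probe 0 of these 3 were among the nearest 3. For miR-30 they were miR-16-5p, miR-186-5p and miR-128-3p, at 0.116, 0.157 and 0.164. The median distance of all 94 was 0.673 to 0.789. With 3 values each, all relative to the same naive array, this is a description.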

How the data were processed

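Per the file headers, the authors' deposited spot intensity was extracted with Agilent Feature Extraction 10.7.3.1 on a design annotated on rn4, and its processed signal is background-subtracted per spot; the submitters' processing notes name version 9.1. The 4 arrays share 1 slide and 1 scan time. The labels' labelling protocol describes amplified cRNA, which differs from the array type, and this was not resolved. The series' deposited value table holds the scanner software's total intensity for 102 miRNAs, all 10 members included, within 0.042% and unscaled.

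Spots flagged as outliers were left out (386 to 525 of 14380 per array), and 0 were saturated. A miRNA's value sums, over its probes, the mean processed signal of the spots kept. The floor is the signal of the dimmest probe that had 0.5 or more of its spots called well above background. The members and lists were chosen with earlier results of these data known. The rule for named miRNAs takes the 10 members, the other arms of their precursors, let-7 as a counted list, and 3 nearest miRNAs per family. Of the marker lists, miR-486 was not analysed here. Alternatives changed the scaling, background correction, value per miRNA, spot and detection filters, source table and threshold. The functions were tested on simulated spots. Tools were Python 3.11.15, pandas 2.3.3 and limma 3.58.1 (normexp alone).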

Additional observations from a re-analysis of the deposited data

How the results depend on the processing

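12 alternatives recomputed the values and 1 changed the threshold; scaling by the 75th percentile of all miRNAs gave no value, since that percentile lay below 0 on the light array. From naive to severe, the difference ranged from −2.09 to −1.14 for miR-26a-5p, −1.71 to −0.74 for miR-26b-5p, −2.16 to −0.78 for miR-30b-5p, −1.85 to −0.28 for miR-30c-5p and 0.70 to 1.64 for miR-29c-3p. 0 of the differences past 2-fold changed sign. miR-29a-3p ranged from −0.05 to 0.81 and miR-30d-5p from −0.73 to 0.14. With detection by at least 0.5 of the spots well above background, miR-30b-5p had no value on the severe array.

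Counts of members past 2-fold moved as follows. Without scaling, 2 were lower on the light array, 3 higher on the moderate array, 0 higher on the severe array against naive and 9 lower against moderate. With labelling spike-ins, 2 were lower on the light array, 5 higher on the moderate array and 8 lower on the severe array against moderate. With normexp, which adds 50 units to each spot and so lowers folds by construction, 0 were higher and 1 lower on the severe array against naive, and 1 was lower against moderate. With median scaling, the brightest probe or the deposited value table, 1 was lower on the light array. Against moderate, 1 was higher on the severe array with quantile normalization and with the deposited value table, and 1 lower with that table. At 1.5-fold, 1 was higher and 1 lower on the light array, 1 higher on the moderate array, and 2 and 1 higher on the severe array against naive and moderate. For counts and gaps that moved, the cause was not tested unless given.

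The gap of miR-29 over miR-30 on the light, moderate and severe arrays against naive was 0.15 and 0.34 with quantile normalization (light, moderate) and 0.14 and 0.71 with normexp (light, severe), and 1.48 with the brightest probe (severe). Against moderate it was 0.31 with normexp and 1.16 with the brightest probe. The gap of miR-29 over miR-26 was 0.13 (light) and 1.57 (severe) with quantile normalization, 0.26 and 1.37 with normexp, and 2.07 with the brightest probe (severe); against moderate it was 0.87 with normexp and 1.58 with the brightest probe. The gap of miR-29c-3p over miR-29b-3p was 1.64 (severe against naive) and 1.45 (against moderate) with quantile normalization, and −0.25 (light), 0.93 and 0.80 with normexp. The gap of miR-30d-5p over miR-30b-5p was 0.81 (light) with quantile normalization, and 0.33 (light), 0.77 and 0.72 with normexp. An alternative chosen after seeing the data took miR-29a-3p by its dimmer probe: the gaps of miR-29 over miR-30 and miR-26 became 0.72 and 1.33 (severe against naive) and 0.43 and 0.86 (against moderate). Under all alternatives that gave a value, each of these gaps kept its sign, which dividing an array by 1 factor cannot change. The gap of miR-30e-5p over miR-30c-5p, not among them, turned with normexp (severe against naive).

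Signals near the floor limit miR-30c-5p, at 43.6 intensity units on the severe array, where 10 of 20 spots were well above background. No paired analysis was possible because each group has 1 array.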
